A study of Mus musculus with 9 samples.

Results

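The genes described here are 44 antiviral interferon-stimulated genes of the 23234 genes listed for each library. They were chosen by name, with earlier results of these data known. They were measured by RNA sequencing in group 2 innate lymphoid cells (ILC2s), tissue lymphocytes that make type 2 cytokines, taken from wild-type C57BL/6 mice, out of the lymphoid clusters that lie in fat. All cells were cultured for 48 h with IL-33, an alarmin that activates ILC2s, at 10 ng/ml. A group of 3 libraries had IL-33 alone, another 3 also had IFN-γ at 10 ng/ml, and another 3 also had IL-27 at 10 ng/ml. No group was cultured without IL-33, and no age or sex was given. The labels do not say whether replicates came from separate mice or cultures, so p-values measure only the spread between these libraries, which may be technical.

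Type I interferons activate the complex ISGF3, which includes STAT2 and IRF9 and binds the interferon-stimulated response element in the promoters of antiviral genes. IFN-γ, the type II interferon, acts mainly through another element, the gamma-activated site. IL-27, of the IL-12 cytokine family, also signals through Janus kinases. The products of interferon-stimulated genes detect viral nucleic acid, block viral translation or entry, and tag or untag proteins with the ubiquitin-like modifier ISG15. The list was divided by role into 12 classic targets of type I interferon (Isg15 and the Ifit, Oas and Mx genes), 6 sensors and double-stranded RNA enzymes, 5 genes of a Parp group and 3 Ifitm genes. The others were 3 genes of ISG15 conjugation, 6 restriction factors and nucleotide enzymes, 3 nuclear body genes and 6 further genes.

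Promoter sequence shows what the named elements look like in these genes, and the windows below are examples from classic targets, Bst2 and Ifitm2. The RefSeq promoter table (build GRCm38.p6) held 34 of the 44 genes, each with windows of 300 bases that begin 250 bases before the annotated start. It held none for Oas2, Mx1, Mx2, Dhx58, Zbp1, Parp9, Parp10, Parp14, Usp18 and Rtp4. A core of the interferon-stimulated response element, a direct repeat of GAAA with any 2 bases between, on either strand and with overlaps allowed, lay in the windows of 14 of the 34, against 3.99% of all 27025 genes of the table (3.44% of 32851 windows). It lay in 6 of 9 classic targets, 3 of 4 sensors and double-stranded RNA enzymes, 2 of 3 Ifitm genes, 2 of 6 restriction factors and nucleotide enzymes and 1 of 5 further genes. It lay in 0 of 2 Parp group genes, 0 of 2 ISG15 conjugation genes and 0 of 3 nuclear body genes. A gamma-activated site, TTCNNNGAA on either strand, lay in 9 of the 34, against 9.55% of all genes of the table. Both motifs lay in the windows of Oas1a, Bst2, Eif2ak2 and Ifitm3, and in Bst2 and Ifitm3 they overlapped. A match is a description of these letters and not a measured binding site. All windows printed below hold the core of the response element. Windows without it, such as those of the classic targets Ifit2, Oasl1 and Oasl2, are not printed. The 160 bases before the start are given 5′ to 3′ on the gene's strand, with the matches to either motif in capitals. They are taken from chr4:156200819-156200978 (Isg15, minus strand), chr19:34640729-34640888 (Ifit1, plus strand), chr19:34583369-34583528 (Ifit3, plus strand), chr5:120777660-120777819 (Oas3, minus strand), chr5:120907526-120907685 (Oas1a, minus strand), chr8:71537473-71537632 (Bst2, minus strand) and chr7:140955962-140956121 (Ifitm2, minus strand).
Isg15: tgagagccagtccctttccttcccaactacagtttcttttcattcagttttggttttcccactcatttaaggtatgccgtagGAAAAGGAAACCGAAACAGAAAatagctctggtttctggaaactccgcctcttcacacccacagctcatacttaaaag
Ifit1: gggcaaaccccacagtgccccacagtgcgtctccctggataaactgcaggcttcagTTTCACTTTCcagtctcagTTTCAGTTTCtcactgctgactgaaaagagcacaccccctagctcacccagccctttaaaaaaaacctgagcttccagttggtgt
Ifit3: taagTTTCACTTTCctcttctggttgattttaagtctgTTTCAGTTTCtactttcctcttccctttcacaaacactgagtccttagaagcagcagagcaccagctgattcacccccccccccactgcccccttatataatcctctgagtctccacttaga
Oas3: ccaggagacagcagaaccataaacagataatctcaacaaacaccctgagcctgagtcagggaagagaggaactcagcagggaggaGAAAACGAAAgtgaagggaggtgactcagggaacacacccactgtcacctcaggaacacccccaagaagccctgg
Oas1a: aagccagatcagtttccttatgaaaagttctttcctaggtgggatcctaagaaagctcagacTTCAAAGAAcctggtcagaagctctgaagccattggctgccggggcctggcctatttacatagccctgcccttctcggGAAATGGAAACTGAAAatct
Bst2: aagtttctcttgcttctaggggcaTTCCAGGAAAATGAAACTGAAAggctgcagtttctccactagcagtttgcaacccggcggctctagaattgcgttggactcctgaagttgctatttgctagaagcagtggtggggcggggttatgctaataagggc
Ifitm2: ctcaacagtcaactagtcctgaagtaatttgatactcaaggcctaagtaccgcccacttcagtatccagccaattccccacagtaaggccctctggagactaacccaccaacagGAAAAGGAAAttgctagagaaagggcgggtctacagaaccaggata

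The ILC2 label was checked against 12 markers, all of which were listed above 0 in all 9 libraries, among them Gata3 (161 to 348 FPKM), Il1rl1 (253 to 976) and Il5 (1656 to 9222). Their summed FPKM, mostly Il5 and Il13 (2511 to 11034), was 14200 to 22100 with IL-33 alone, 5650 to 9180 with IFN-γ and 11900 to 12300 with IL-27. The median difference of log2(FPKM + 1) over the 12 markers was 0.03 with IFN-γ and 0.17 with IL-27. In each comparison 7 markers were higher and 5 lower. Single differences ran from -1.55 to 2.23 with IFN-γ and from -0.84 to 2.56 with IL-27. At a limma adjusted p under 0.05, 1 marker was higher and 3 were lower with IFN-γ, against 2.19% and 0.717% of all tested genes. The markers that passed were Il2ra, Il5, Il13 and Areg. With IL-27 Areg alone passed, and it was higher, against 0.908% of all tested genes. FPKM is a fragment count scaled to transcript length and to the number of mapped fragments. Among markers of other cells, the T cell list summed to 34.7 to 105 FPKM over the 9 libraries, with Cd4 at 0 throughout but Cd3g (28.4 to 97.6) and Lck (1.99 to 12.7) present. The B cell list summed to 20.3 to 84.8, almost all Cd79b, with Pax5 at 0. The macrophage and dendritic cell list summed to 1.37 to 20.4, mostly Cd68 (1.16 to 18.8), with Csf1r, Fcgr1 and Mertk at 0. In the mast cell list Mcpt4 and Ms4a2 were at 0 and Fcer1a reached 8.3, and 4 of 4 adipocyte markers were at 0. Other lists moved with the treatments. The endothelial and mesothelial list, almost all Pecam1, summed to 49.4 to 78.3 FPKM with IL-33 alone, 158 to 204 with IFN-γ and 81.7 to 106 with IL-27, with Kdr, Msln, Upk3b and Krt19 at 0. The plasmacytoid dendritic cell list, mostly Irf8 and the antiviral gene Bst2, summed to 84.1 to 104, 258 to 282 and 182 to 251, with Tlr7 at 0, Siglech at most 1.10 and Ccr9 at 0.452 to 7.0. The part of these shifts in the antiviral levels was not tested. FPKM values came from an estimated 871000 to 989000 fragments per library, an approximate figure, so that 3 fragments in a transcript of 2 kb were worth 1.52 to 1.72 FPKM. The libraries numbered 3 stood apart in fibroblast transcripts. The summed FPKM of 8 fibroblast markers was 36.2, 86.5 and 63.7 in library 3 of the IL-33, IFN-γ and IL-27 groups, against 2.92 to 17.6 in the other 6. Number 3 was also the highest library of its group for 26 of 37 tested antiviral genes with IL-33 (70.3%), 31 with IFN-γ (83.8%) and 29 with IL-27 (78.4%), against 35.9% to 37.8% of all tested genes. Whether RNA of fibroblasts or other cells had a part in the antiviral levels was not tested. In bulk RNA, a change in the share of cells that express a gene and a change in its RNA per cell cannot be told apart.

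Most of the antiviral genes were higher with each of IFN-γ and IL-27 than with IL-33 alone, and none was called lower. A gene was called when its limma p, adjusted by the Benjamini-Hochberg method over all 11014 tested genes, was under 0.05. Tested genes averaged 1 FPKM or more across the 9 libraries. With IFN-γ, 20 of the 37 tested antiviral genes rose, 0 fell and 17 did not pass, against 2.19% of all tested genes called higher and 0.717% called lower. With IL-27, 11 rose, 0 fell and 26 did not pass, against 0.908% and 0.118% of all tested genes. The list was chosen with earlier results of these data known, so the contrast with all tested genes is a description. Of the 37, Ifit1, Oas1g, Oasl2, Cmpk2 and Rtp4 averaged under 1 FPKM with IL-33 and passed the filter only through the treated groups. These 5 could hardly be called lower, and Oasl2 and Rtp4 are among the 20. The 11 genes that rose with IL-27 were among the 20 that rose with IFN-γ, and the comparisons share their IL-33 libraries. The 3 treated libraries all lay above the 3 IL-33 libraries for 33 of all 44 genes with IFN-γ and for 29 with IL-27, against 11.9% and 8.29% of all tested genes. The 33 include Ifi44 and the 29 include Oas2, which were not tested. For 0 of the 44 did the treated libraries all lie below, against 8.65% and 5.72% of all tested genes. That outcome was not possible for a gene listed at 0 in any IL-33 library. Of the 44, 8 were at 0 in all 3 IL-33 libraries, and Oas1g, Oasl1, Oasl2, Ifitm1 and Rsad2 in at least 1. An unadjusted p under 0.05 was reached by 34 of the 37 with IFN-γ and 29 with IL-27, against 15.4% and 9.51% of all tested genes. Over all 44 genes the median difference of log2(FPKM + 1) was 1.48 with IFN-γ and 1.18 with IL-27, against 0.03 and 0.01 over all tested genes. Over the 37 tested antiviral genes it was 1.55 and 1.34.

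The libraries with the same number vary together, and a fit with that number as a block called 32 antiviral genes higher with IFN-γ (6.51% of all tested genes) and 28 with IL-27 (3.37%). Again 0 were lower, against 4.66% and 1.78% of all tested genes. With each library left out in turn, the number higher with IFN-γ ran from 12, without IFN-γ library 2, to 24, without IL-33 library 3. With IL-27 it ran from 3 to 13. It was 5 without IL-33 library 1, 3 without IL-33 library 2, 5 without IFN-γ library 2, and 4, 6 and 3 without IL-27 libraries 1, 2 and 3. The calls of Isg15, Oas3, Zbp1, Adar, Parp10, Parp14, Dtx3l, Ube2l6, Herc6, Usp18, Isg20 and Bst2 with IFN-γ held in all 9 omissions, and so did those of Zbp1, Parp14 and Isg20 with IL-27. With libraries 1 and 2 of each group only, 19 genes were higher with IFN-γ and 6 with IL-27, and with the block 24 and 16.

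Other settings ended some calls. When only the groups compared were fitted, Isg15 with IFN-γ (adjusted p = 0.056) and Isg20 with IL-27 (0.0503) no longer passed. That fit also ended the IFN-γ calls of Oasl2, Parp9, Parp12, Samhd1 and Rtp4 and the IL-27 calls of Oas3, Eif2ak2, Parp10, Dtx3l, Herc6 and Bst2. Without the filter on low values, the IFN-γ calls of Oasl2, Parp9, Parp12, Samhd1 and Rtp4 and the IL-27 calls of Eif2ak2, Dtx3l, Ube2l6, Herc6 and Usp18 ended. With libraries 1 and 2 only and no block, Adar (0.103), Oasl2, Parp9, Parp12, Ifitm3 and Rtp4 did not pass with IFN-γ. With the block in that subset, only the IFN-γ calls of Adar (0.0547) and Oasl2 (0.0632) ended. In the unblocked subset Oas3, Eif2ak2, Parp10, Ube2l6, Herc6, Usp18 and Bst2 did not pass with IL-27. With the block, Parp10 passed and the others of these did not. Without limma's trend, the IFN-γ call of Samhd1 and the IL-27 calls of Eif2ak2, Ube2l6 and Bst2 ended.

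**Figure D1:**
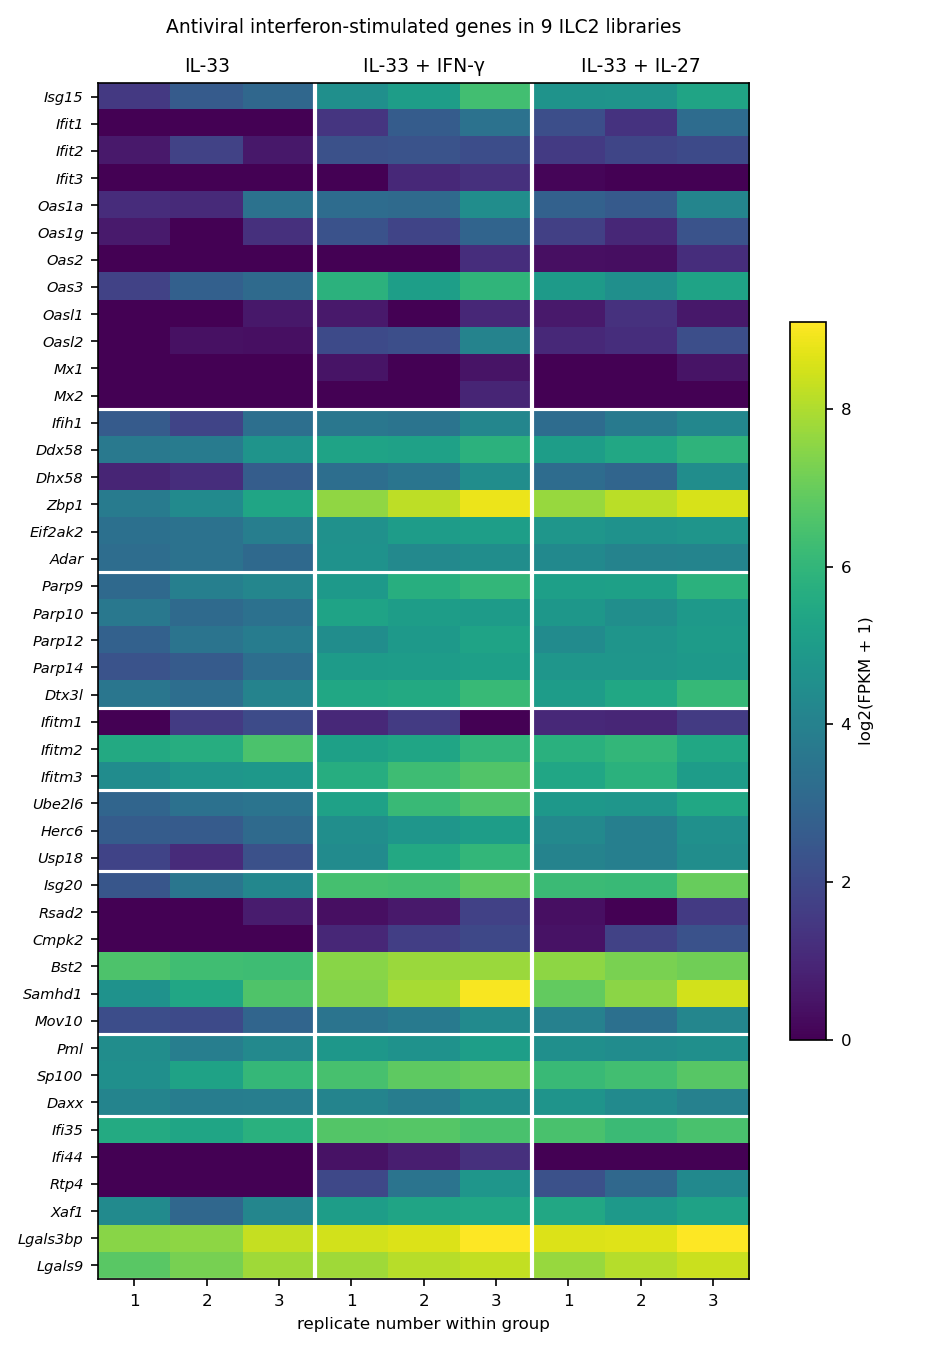
Heat map of log2(FPKM + 1) for the 44 antiviral genes (rows, divided by role in the order classic targets, sensors, Parp group, Ifitm, ISG15 conjugation, restriction factors, nuclear body and further genes) in the 9 libraries (columns, by group and replicate number). Brighter cells are higher levels; Mx1, Mx2, Ifit3 and Oas2 stayed dark in all libraries, whereas Zbp1, Bst2, Samhd1, Lgals3bp and Lgals9 were bright in the treated groups.

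The classic targets were low or listed at 0 with IL-33 alone. Ifit1, Ifit3, Oas2, Mx1 and Mx2 stood at 0 in all 3 libraries with IL-33 alone, and Ifit3, Oas2, Oasl1, Mx1 and Mx2 stayed below the filter and were not tested. Of the 7 tested, Isg15, Oas3 and Oasl2 rose with IFN-γ and Oas3 rose with IL-27. The blocked fit called 6 and 4. Ifit1, Oas1g and Oasl2 had under 1 FPKM on average with IL-33, so they passed the filter through the treated groups.

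Isg15 (chromosome 4, 155573533 to 155574927, build mm9, minus strand) encodes the ubiquitin-like modifier itself. It had 1.84, 5.06 and 7.3 FPKM in IL-33 libraries 1 to 3, 22.0, 32.4 and 80.8 with IFN-γ, and 24.3, 25.3 and 38.4 with IL-27. Its longest transcript has 756 bases, so that 3 fragments were worth 4.56 FPKM at the lowest depth. The IL-33 values thus rest on a few fragments. Every treated library lay above every IL-33 library, and IFN-γ library 3 was the highest. The rise with IFN-γ was 7.60-fold (log2 difference 2.93 ± 0.50 SE, limma adjusted p = 0.0126). With IL-27 the log2 fold change was 2.51 (adjusted p = 0.052, 0.00192 in the blocked fit). Folds are on the log2(FPKM + 1) scale, which understates changes of low genes.

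The Oas genes encode enzymes that sense double-stranded RNA and make 2-5A, the activator of RNase L. Oas3 (chromosome 5, 121203107 to 121227670, minus strand) had 2.48, 5.98 and 7.9 FPKM with IL-33 alone, 56.6, 33.6 and 61.1 with IFN-γ, and 30.01, 22.4 and 38.0 with IL-27. No treated library overlapped the IL-33 libraries. Oas3 rose 8.30-fold with IFN-γ (log2 difference 3.05 ± 0.37 SE, adjusted p = 0.00221) and 5.08-fold with IL-27 (2.34 ± 0.37, adjusted p = 0.0181). The IL-27 call ended on leaving out IL-33 library 2 (adjusted p = 0.0631), IL-27 library 1 (0.0737) or IL-27 library 3 (0.088).

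Oas1a had 1.21, 1.11 and 9.8 FPKM with IL-33 alone, 8.40, 7.83 and 20.8 with IFN-γ, and 6.13, 4.98 and 16.6 with IL-27. Library 3 was the highest of each group, and the groups overlapped because IL-33 library 3 exceeded libraries 1 and 2 of both treatments. Oas1a did not pass with either treatment (log2 difference 1.72 with IFN-γ, adjusted p = 0.253, and 1.30 with IL-27, adjusted p = 0.607), but passed in the blocked fit (0.00647 and 0.032). Oas1g had 0.568, 0 and 1.4 FPKM with IL-33 alone, 3.95, 2.63 and 6.6 with IFN-γ, and 2.31, 1.04 and 4.0 with IL-27, with no overlap between IL-33 and IFN-γ. Its adjusted p was 0.0964 with IFN-γ (0.00574 in the blocked fit) and 0.525 with IL-27. In GENCODE vM1 transcripts, 53.0% of the 50-base words of Oas1a and 50.6% of those of Oas1g occur in another Oas1 gene, so the division of fragments between these copies is uncertain.

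Oasl2, a homologue of the Oas enzymes, had 0, 0.318 and 0.3 FPKM with IL-33 alone, 3.10, 3.53 and 15.9 with IFN-γ, and 1.06, 1.27 and 3.6 with IL-27. IFN-γ library 3 stood far above the other libraries, and the IFN-γ libraries did not overlap those with IL-33 alone. It rose with IFN-γ (log2 difference 2.51 ± 0.56 SE, adjusted p = 0.0463) and did not pass with IL-27 (1.22, adjusted p = 0.538). The call held only without IL-27 library 3 (adjusted p = 0.0478); in the other 8 omissions the adjusted p ran from 0.0573 to 0.133, the highest without IL-33 library 1.

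The Ifit proteins bind viral RNA that lacks host cap methylation and block its translation. Ifit1 stood at 0 in each library with IL-33 alone and had 1.66, 5.22 and 9.8 FPKM with IFN-γ and 3.6, 1.53 and 8.3 with IL-27. Library 3 was again the highest of each treated group. Ifit1 did not pass with IFN-γ (adjusted p = 0.0525, 0.0181 in the blocked fit) or IL-27 (0.147, 0.042 in the blocked fit). Ifit2 had 0.543, 2.49 and 0.5 FPKM with IL-33 alone, 3.78, 4.02 and 3.4 with IFN-γ, and 1.93, 2.74 and 3.1 with IL-27. Its IFN-γ libraries lay above all others, with a log2 fold change of 1.24 (adjusted p = 0.144), while the IL-27 and IL-33 libraries overlapped (0.82, adjusted p = 0.537).

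The 5 untested classic targets stayed near the limit of these libraries. Ifit3 reached at most 1.4 FPKM, Oas2 1.3, Oasl1 1.46, Mx1 0.405 and Mx2 0.9. Ifit3, Mx1 and Mx2 were at or under the value of 3 fragments in every library. The Mx proteins are dynamin-like GTPases that block viral replication, and C57BL/6 mice carry a defective Mx1 gene. At this depth a change in Ifit3, Mx1 and Mx2 was not detectable, and Oas2 and Oasl1 were too low to be tested. Oas2 had 0.282, 0.255 and 1.3 FPKM with IL-27, above its 0 in each library with IL-33 alone. Of the 50-base words of Ifit3, 51.5% occur in another annotated gene, I830012O16Rik, which could take part of its fragments.

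**Figure D2:**
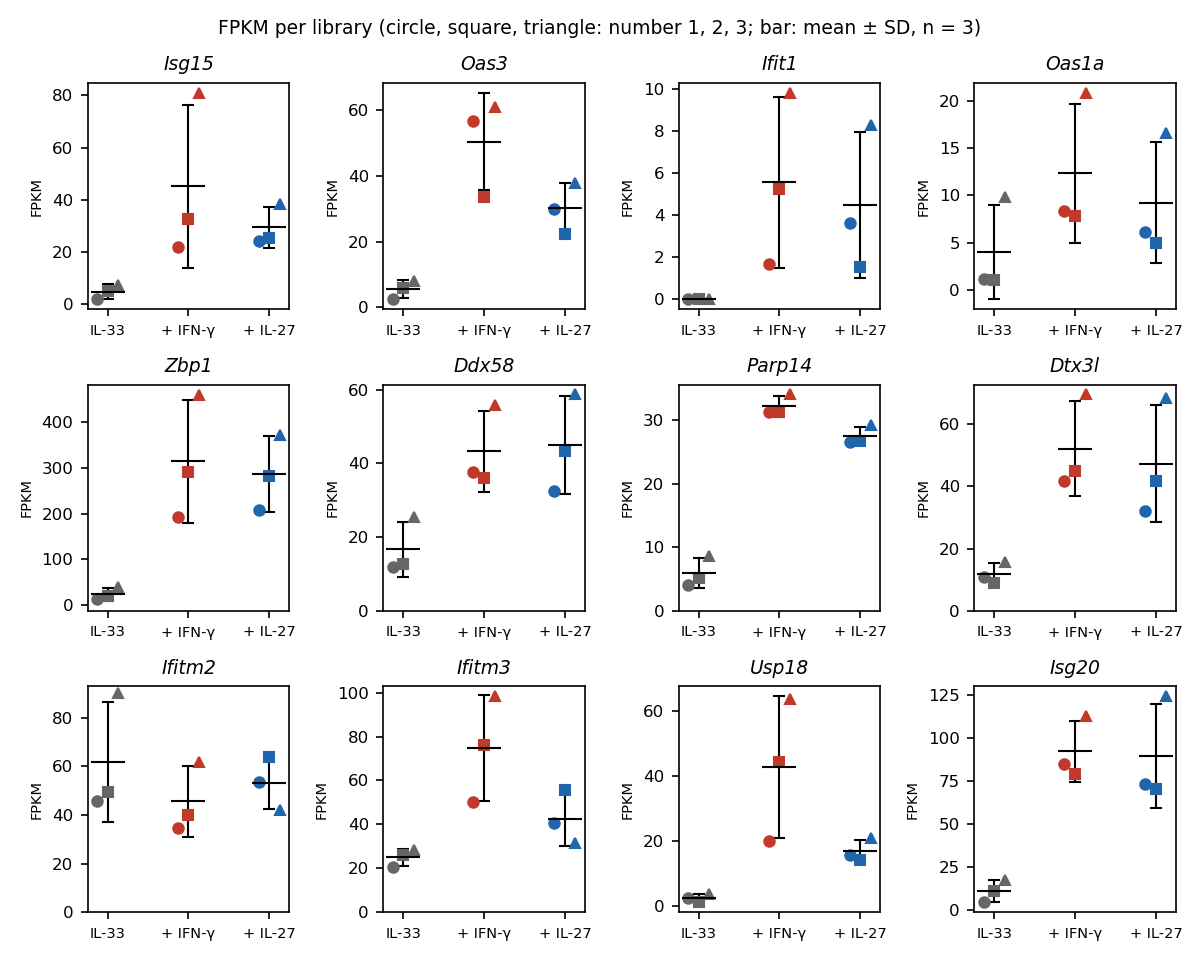
FPKM of 12 antiviral genes in each library (circles, squares and triangles are libraries 1, 2 and 3; bars are mean ± SD, n = 3), by group, each panel on its own linear axis. Ifit1 was at 0 in all IL-33 libraries, Zbp1 and Isg20 were similar in the IFN-γ and IL-27 groups, and Ifitm2 overlapped between all groups.

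All 6 sensors and double-stranded RNA enzymes were measured with IL-33 alone, at mean levels of 2.53 to 24.04 FPKM. With IFN-γ, Zbp1, Eif2ak2 and Adar rose and 3 did not pass, and with IL-27 Zbp1 and Eif2ak2 rose and 4 did not pass. The blocked fit called all 6 in both comparisons.

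Zbp1 (chromosome 2, 173032113 to 173044424, minus strand) encodes a sensor of Z-form nucleic acid that can start cell death. It had 12.9, 19.3 and 39.9 FPKM with IL-33 alone, 193.7, 290.1 and 459.8 with IFN-γ, and 207, 282 and 372 with IL-27. The treated libraries lay far above the IL-33 libraries, and number 3 was the highest in each group. The rise was 13.1-fold with IFN-γ (log2 difference 3.71 ± 0.42 SE, adjusted p = 0.00171) and 12.4-fold with IL-27 (3.63 ± 0.42, adjusted p = 0.00313).

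Eif2ak2 encodes PKR, the kinase that stops translation when it binds double-stranded RNA. It had 9.37, 9.71 and 13.9 FPKM with IL-33 alone, 23.0, 31.6 and 33.2 with IFN-γ, and 26.3, 23.7 and 26.0 with IL-27. It rose 2.53-fold with IFN-γ (log2 difference 1.34 ± 0.22 SE, adjusted p = 0.00907) and 2.22-fold with IL-27 (1.15 ± 0.22, adjusted p = 0.0409), with no overlap with IL-33 alone. The IFN-γ call ended on leaving out IFN-γ library 2 (0.0521). The IL-27 call held only without IL-33 library 3 or IFN-γ library 1; in the other 7 omissions the adjusted p ran from 0.057, without IFN-γ library 3, to 0.167, without IL-33 library 2.

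Adar encodes the enzyme that converts adenosine to inosine in double-stranded RNA. It had 8.55, 9.76 and 7.6 FPKM with IL-33 alone, 24.1, 18.2 and 20.9 with IFN-γ, and 19.0, 15.7 and 16.4 with IL-27. Both treated groups lay above IL-33 alone, and here number 3 was not the highest library. Adar rose with IFN-γ (log2 difference 1.19 ± 0.19 SE, adjusted p = 0.00957) and did not pass with IL-27 (0.90, adjusted p = 0.0724, 0.0206 in the blocked fit).

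The RIG-I-like receptors detect viral RNA in the cytoplasm. Ddx58, the gene of RIG-I, had 11.8, 12.8 and 25.4 FPKM with IL-33 alone, 37.7, 36.2 and 55.9 with IFN-γ, and 32.6, 43.5 and 58.9 with IL-27. Ifih1, the gene of MDA5, had 5.12, 2.63 and 9.1 FPKM with IL-33 alone, 11.3, 10.3 and 16.9 with IFN-γ, and 8.39, 12.3 and 17.6 with IL-27. Dhx58, the gene of LGP2, had 0.921, 1.27 and 5.4 FPKM with IL-33 alone, 8.69, 10.7 and 21.1 with IFN-γ, and 8.41, 6.75 and 20.9 with IL-27. Library 3 was the highest of each group for all 3 genes, and only Ifih1 overlapped between IL-33 and a treated group, IL-27. The log2 fold changes with IFN-γ were 1.38 for Ddx58 (adjusted p = 0.0553), 1.16 for Ifih1 (0.191) and 2.16 for Dhx58 (0.072). With IL-27 they were 1.42 (0.0921), 1.12 (0.357) and 1.95 (0.195). None of these passed, and in the blocked fit all did (0.00136, 0.028 and 0.001 with IFN-γ, and 0.00216, 0.0494 and 0.00273 with IL-27).

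All 5 genes of the Parp group rose with IFN-γ, and Parp10, Parp14 and Dtx3l rose with IL-27. In both comparisons the treated libraries lay above the IL-33 libraries for all 5, and the blocked fit called all 5. Parp enzymes attach ADP-ribose to proteins or to themselves, and Dtx3l is a ubiquitin ligase that partners Parp9.

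Parp14 (chromosome 16, 35832960 to 35871630, minus strand), a mono-ADP-ribosyltransferase, had 4.04, 5.15 and 8.7 FPKM with IL-33 alone, 31.3, 31.3 and 34.1 with IFN-γ, and 26.6, 26.7 and 29.2 with IL-27. The libraries of each treated group lay close together. It rose 4.95-fold with IFN-γ (log2 difference 2.31 ± 0.24 SE, adjusted p = 0.000921) and 4.25-fold with IL-27 (2.09 ± 0.24, adjusted p = 0.00312). Parp10, another mono-ADP-ribosyltransferase, had 11.53, 7.84 and 9.4 FPKM with IL-33 alone, 37.7, 32.6 and 30.8 with IFN-γ, and 27.4, 21.8 and 28.7 with IL-27. It rose with IFN-γ (log2 difference 1.72 ± 0.20 SE, adjusted p = 0.002) and with IL-27 (1.35 ± 0.20, adjusted p = 0.0134). The IL-27 call of Parp10 ended on leaving out IL-33 library 2 (0.0631), IL-27 library 1 (0.0672) or IL-27 library 3 (0.0717).

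Parp9 and Dtx3l lie next to each other on chromosome 16, where their annotated models overlap by 682 bases on opposite strands, and the TruSeq RNA v2 kit does not mark strand. Reads from the overlap therefore cannot be told apart. Dtx3l had 10.997, 8.80 and 15.7 FPKM with IL-33 alone, 41.7, 44.8 and 69.5 with IFN-γ, and 31.9, 41.6 and 68.2 with IL-27. Parp9 had 7.57, 14.4 and 17 FPKM with IL-33 alone, 28.6, 50.7 and 63.5 with IFN-γ, and 33.8, 35.2 and 55.6 with IL-27. Neither gene overlapped between IL-33 alone and a treated group. Dtx3l rose with IFN-γ (log2 difference 2.05 ± 0.32 SE, adjusted p = 0.00791) and with IL-27 (1.88 ± 0.32, adjusted p = 0.0263), and Parp9 rose with IFN-γ only by this threshold (1.79, adjusted p = 0.0289, against 1.64 and 0.0829 with IL-27, 0.00218 in the blocked fit). The Dtx3l call with IL-27 ended on leaving out IL-33 library 1 (0.0898) or 2 (0.126), IFN-γ library 2 (0.0574) or IL-27 library 2 (0.084) or 3 (0.0884). The Parp9 call ended on leaving out IL-33 library 1 (0.0872) or 2 (0.0765), IFN-γ library 2 (0.109) or 3 (0.115), or IL-27 library 2 (0.0522).

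Parp12, whose product is a mono-ADP-ribosyltransferase with zinc fingers, had 6.05, 10.5 and 13.3 FPKM with IL-33 alone, 21.0, 29.3 and 37.5 with IFN-γ, and 19.8, 25.9 and 30.6 with IL-27. The treated libraries again lay above the others. It rose with IFN-γ (log2 difference 1.49, adjusted p = 0.0337) and did not pass with IL-27 (1.31, adjusted p = 0.108, 0.00229 in the blocked fit). The IFN-γ call ended on leaving out IL-33 library 1 (0.0931) or 2 (0.0885), IFN-γ library 2 (0.111) or 3 (0.129), or IL-27 library 2 (0.0618).

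The Ifitm genes, which encode membrane proteins that hinder the fusion of viruses with host membranes, differed among themselves. Ifitm3 (chromosome 7, 148195485 to 148196669, minus strand) had 20.6, 26.2 and 28.2 FPKM with IL-33 alone, 50.1, 76.3 and 98.3 with IFN-γ, and 40.7, 55.6 and 31.4 with IL-27. Both treated groups lay above IL-33 alone. Ifitm3 rose 2.84-fold with IFN-γ (log2 difference 1.5 ± 0.28 SE, adjusted p = 0.0213) and did not pass with IL-27 (0.72, adjusted p = 0.439). The call ended on leaving out IL-33 library 1 (0.082) or 2 (0.0699) or IFN-γ library 2 or 3 (0.086 each).

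Ifitm2 had 45.7, 49.5 and 90.0 FPKM with IL-33 alone, 34.6, 40.1 and 61.9 with IFN-γ, and 53.7, 63.9 and 42.1 with IL-27. All 3 groups overlapped, with log2 fold changes of -0.41 (95% interval -1.09 to 0.28, adjusted p = 0.59) and -0.16 (-0.85 to 0.52, adjusted p = 0.924). Ifitm1 had 0, 1.97 and 3.2 FPKM with IL-33 alone, 1.07, 1.99 and 0 with IFN-γ, and 1.09, 0.986 and 2.0 with IL-27, at or under the value of 3 fragments in every library, so no change was detectable. About 11.1% of the 50-base words of Ifitm2 and 10.0% of those of Ifitm3 occur in other genes.

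The classic targets stood at lower levels than the Parp, sensor and Ifitm genes, and which set had the larger median change depended on the pseudocount. The median log2(FPKM + 1) of the 12 classic targets was 0, 0 and 0.48 in the IL-33 libraries, 1.72, 2.02 and 2.53 with IFN-γ, and 1.29, 1.24 and 2.12 with IL-27. The median of the 14 Parp, sensor and Ifitm genes was 3.32, 3.42 and 3.87 with IL-33, 4.95, 5.05 and 5.20 with IFN-γ, and 4.81, 4.77 and 4.95 with IL-27. The Parp, sensor and Ifitm genes thus had a higher median in every IL-33 library than the classic targets had in any library. Median differences in log2(FPKM + 1) over all listed genes of a set were 1.48 for the classic targets and 1.5 for the others with IFN-γ, and 0.94 and 1.33 with IL-27. With a pseudocount of 0.1 in place of 1, the median change with IFN-γ was 2.32 for the classic targets and 1.56 for the others. With IL-27 the order of the sets reversed, to 2.24 for the classic targets and 1.42 for the others. With libraries 1 and 2 only, the medians were 1.42 and 1.52 with IFN-γ, and 0.94 and 1.35 with IL-27. Of the classic targets, 3 of 7 tested rose with IFN-γ and 1 of 7 with IL-27; of the others, 9 of 14 and 5 of 14 did. The difference between the sets was not tested.

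**Figure D3:**
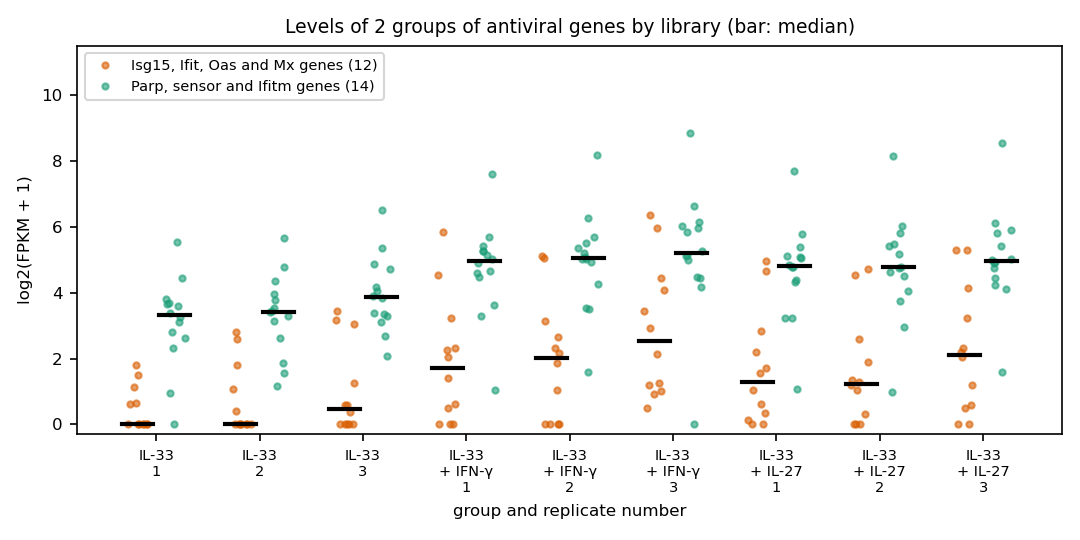
Levels of the 12 Isg15, Ifit, Oas and Mx genes (orange) and the 14 Parp, sensor and Ifitm genes (green) in each library as log2(FPKM + 1), with 1 point per gene and a bar at the median. The orange medians run from 0 to 2.53 and the green medians from 3.32 to 5.20, and both are higher in the treated groups.

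The 3 genes of ISG15 conjugation all rose in both comparisons. Usp18 (chromosome 6, 121195924 to 121220934, plus strand) encodes the protease that removes ISG15 and also dampens type I interferon receptor signalling. It had 2.60, 1.19 and 3.8 FPKM with IL-33 alone, 20.0, 44.5 and 63.7 with IFN-γ, and 15.8, 14.3 and 20.9 with IL-27. For this gene 3 fragments were worth 1.95 FPKM at the lowest depth, so the IL-33 values rest on a few fragments. Usp18 rose 11.8-fold with IFN-γ (log2 difference 3.56 ± 0.42 SE, adjusted p = 0.002) and 5.3-fold with IL-27 (2.41 ± 0.42, adjusted p = 0.0287). IFN-γ libraries 2 and 3 exceeded every IL-27 library. The IL-27 call held without IL-33 library 3, IFN-γ library 1 or IFN-γ library 3; in the other 6 omissions the adjusted p ran from 0.0646, without IFN-γ library 2, to 0.126, without IL-33 library 2.

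Ube2l6 encodes the conjugating enzyme for ISG15, and Herc6 the ligase that attaches it in mice. Ube2l6 had 6.88, 9.44 and 10.2 FPKM with IL-33 alone, 35.9, 70.1 and 92.6 with IFN-γ, and 27.9, 26.8 and 41.5 with IL-27. Herc6 had 5.21, 5.14 and 7.9 FPKM with IL-33 alone, 21.7, 26.4 and 32.5 with IFN-γ, and 18.5, 14.1 and 22.6 with IL-27. Neither overlapped between IL-33 alone and a treated group. Ube2l6 rose with IFN-γ (log2 difference 2.69 ± 0.34 SE, adjusted p = 0.00248) and with IL-27 (1.74 ± 0.34, adjusted p = 0.0461), and Herc6 did so too (1.98, adjusted p = 0.00278, and 1.45, adjusted p = 0.0287). The Ube2l6 call with IL-27 held only without IFN-γ library 1 or 3; otherwise the adjusted p ran from 0.0738, without IL-33 library 3, to 0.182, without IL-27 library 3. The Herc6 call with IL-27 ended on leaving out IL-33 library 1 (0.0988) or 2 (0.131), IFN-γ library 2 (0.0692) or IL-27 library 1 (0.11) or 3 (0.12).

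Of the 6 restriction factors and nucleotide enzymes, Isg20, Bst2 and Samhd1 rose with IFN-γ and Isg20 and Bst2 with IL-27. Isg20, the gene of an exonuclease that degrades single-stranded RNA, had 4.43, 10.8 and 17.5 FPKM with IL-33 alone, 85.1, 79.3 and 112.7 with IFN-γ, and 73.4, 70.4 and 124.4 with IL-27. The treated groups overlapped each other and lay well above IL-33 alone. The rise was 8.72-fold with IFN-γ (log2 difference 3.12 ± 0.41 SE, adjusted p = 0.00314) and 8.24-fold with IL-27 (3.04 ± 0.41, adjusted p = 0.00702).

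Bst2, the gene of tetherin, which holds budding virions at the cell surface, was abundant in every group. It had 94.1, 77.8 and 76.7 FPKM with IL-33 alone, 178, 211 and 210.5 with IFN-γ, and 189, 154 and 140.5 with IL-27. It rose 2.40-fold with IFN-γ (log2 difference 1.26 ± 0.17 SE, adjusted p = 0.00379) and 1.93-fold with IL-27 (0.95 ± 0.17, adjusted p = 0.034). The IL-27 call held only without IFN-γ library 1; in the other 8 omissions the adjusted p ran from 0.0541, without IFN-γ library 3, to 0.148, without IL-33 library 2. Samhd1, whose product breaks down deoxynucleotides, had 24.02, 41.2 and 94.6 FPKM with IL-33 alone, 169.9, 242 and 509 with IFN-γ, and 119, 181 and 352 with IL-27. Library 3 was the highest of each group, at more than the sum of the other two. Samhd1 rose with IFN-γ (log2 difference 2.57, adjusted p = 0.0422, 1.06e-05 in the blocked fit) and did not pass with IL-27 (2.09, adjusted p = 0.176, 5.19e-05 in the blocked fit). The IFN-γ call held without IL-33 library 3, IL-27 library 1 or IL-27 library 3; otherwise the adjusted p ran from 0.0559, without IFN-γ library 1, to 0.144, without IFN-γ library 3.

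The other 3 genes of this role did not pass. Mov10, an RNA helicase gene, had mean levels of 4.46 ± 2.03, 13.9 ± 4.78 and 13.7 ± 4.10 FPKM in the IL-33, IFN-γ and IL-27 groups (SD, n = 3), with log2 fold changes of 1.46 (adjusted p = 0.0554, 0.0051 in the blocked fit) and 1.45 (0.11, 0.00875 in the blocked fit). Cmpk2, a nucleotide kinase gene, was listed at 0 with IL-33 and reached 2.9 FPKM with IFN-γ and 3.9 with IL-27. Rsad2, the gene of viperin, was untested and reached at most 2.4 FPKM.

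No nuclear body gene was called. These genes encode proteins of PML bodies, which repress incoming viral genomes. Sp100 went from 41.3 ± 22.0 FPKM to 108.5 ± 19.2 with IFN-γ and 85.3 ± 17.8 with IL-27 (SD, n = 3; adjusted p = 0.0515 and 0.245, 0.00328 and 0.0158 in the blocked fit). Pml had log2 fold changes of 0.65 (adjusted p = 0.163, 0.0337 in the blocked fit) and 0.28 (0.758), and Daxx 0.18 (0.799) and 0.40 (0.682).

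Among the 6 further genes, Ifi35 and Rtp4 rose with IFN-γ and none passed with IL-27. Ifi35, an interferon-induced leucine zipper protein gene, had 45.7, 39.5 and 53.8 FPKM with IL-33 alone, 99.6, 101.8 and 88.1 with IFN-γ, and 89.2, 72.5 and 88.3 with IL-27. Both treated groups lay above IL-33 alone. The log2 fold change was 1.05 with IFN-γ (adjusted p = 0.0101, 0.0554 without IFN-γ library 2) and 0.84 with IL-27 (adjusted p = 0.0594, 0.0138 in the blocked fit). Rtp4 and Cmpk2 passed the filter only through the treated groups. Rtp4, a chaperone gene for receptor transport, stood at 0 in each library with IL-33 alone and had 2.95, 10.3 and 26.2 FPKM with IFN-γ and 3.77, 7.49 and 19.0 with IL-27. It rose with IFN-γ (adjusted p = 0.0272) and did not pass with IL-27 (0.0665, 0.00929 in the blocked fit). The Rtp4 call held without IFN-γ library 1, IL-27 library 1 or IL-27 library 3; otherwise the adjusted p ran from 0.052, without IL-27 library 2, to 0.0972, without IFN-γ library 2.

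The galectin gene Lgals9 and the galectin-3 binding protein gene Lgals3bp were the most abundant of the list with IL-33 alone, at 160.3 ± 57.8 and 226 ± 74.2 FPKM (SD, n = 3). With IFN-γ they had 269.9 ± 43.9 and 430.4 ± 103 FPKM, and with IL-27 268.9 ± 62.4 and 443 ± 84.5. Neither passed (adjusted p = 0.195 and 0.0933 with IFN-γ, 0.358 and 0.147 with IL-27), and both passed in the blocked fit (0.00564 and 0.000966, 0.00996 and 0.0013). Xaf1, a pro-apoptotic gene, had log2 fold changes of 1.40 (adjusted p = 0.0512, 0.0148 in the blocked fit) and 1.34 (0.112, 0.0271 in the blocked fit). Ifi44 was listed at 0 in all libraries with IL-33 or IL-27 and at 0.374, 0.697 and 1.4 FPKM with IFN-γ, too low to be tested.

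**Figure D4:**
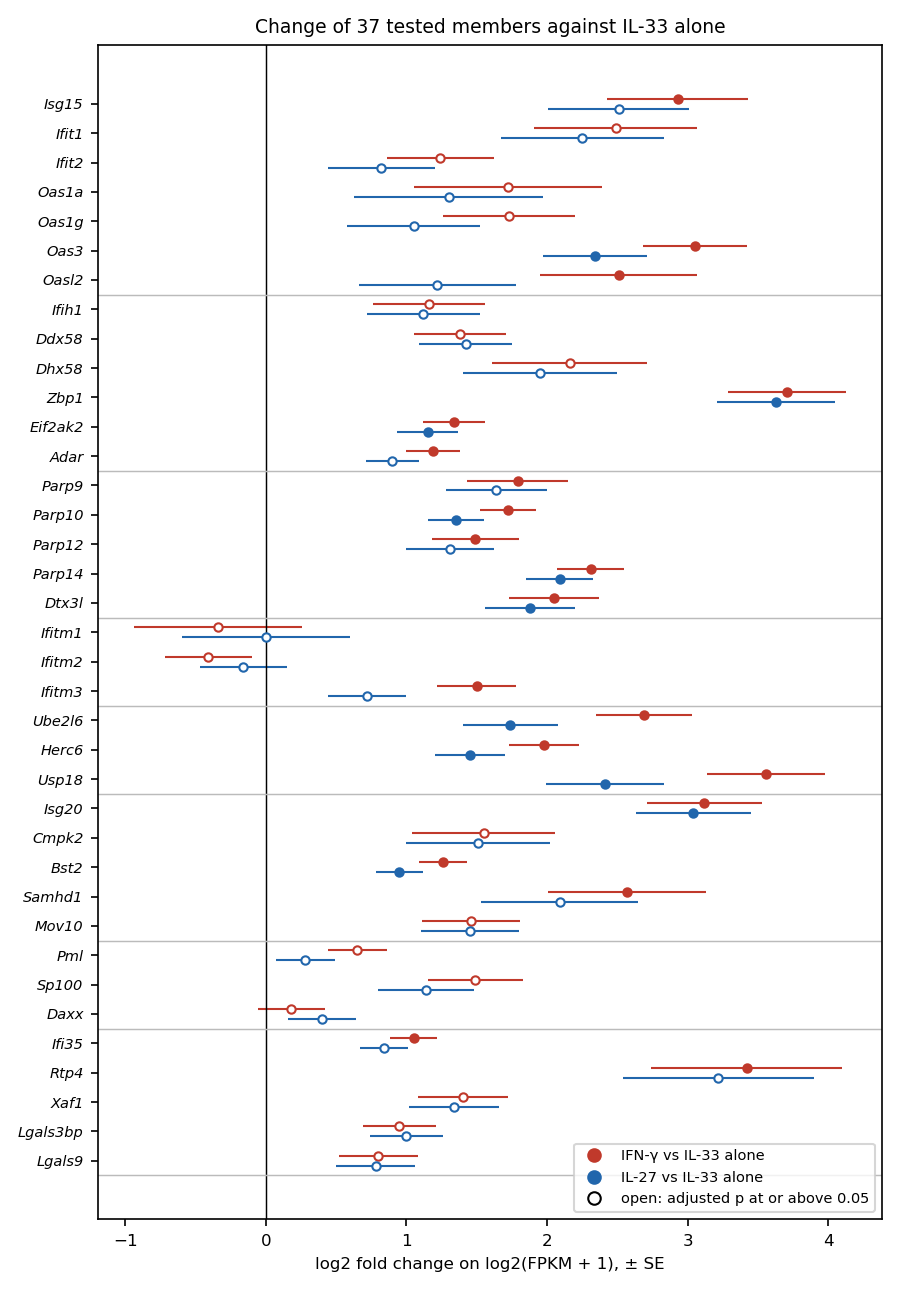
Log2 fold changes (± SE) of the 37 tested antiviral genes with IFN-γ (red) and with IL-27 (blue) against IL-33 alone, on the log2(FPKM + 1) scale; filled points passed an adjusted p of 0.05. Zbp1 lies farthest to the right in both comparisons, and only the SE bars of Ifitm1, Ifitm2 and Daxx reach 0 or below.

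Setting the IFN-γ group directly against the IL-27 group asked whether the cytokines differed in their antiviral genes. None of the 37 tested genes was called by limma, and none in the blocked fit, where 0.0545% of all tested genes were higher with IFN-γ and 0.127% lower. Among all 11014 tested genes limma called 0.0% higher and 0.0% lower, with 483 (4.39%) at an unadjusted p under 0.05. The antiviral genes with an unadjusted p under 0.05 were Usp18, Ube2l6, Ifitm3 and Oasl2, each higher with IFN-γ. Usp18 had a log2 difference of 1.15 (95% interval 0.21 to 2.09, unadjusted p = 0.0214, adjusted p = 1.0), Ube2l6 0.95 (0.20 to 1.70, 0.0186, adjusted p = 1.0), Ifitm3 0.79 (0.15 to 1.42, 0.0205, adjusted p = 1.0) and Oasl2 1.29 (0.03 to 2.55, 0.0451, adjusted p = 1.0). These 4 fail the adjustment over all genes.

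The point estimate was above 0, that is higher with IFN-γ, for 32 of the 37 tested genes and below 0 for Ddx58, Ifitm1, Ifitm2, Daxx and Lgals3bp. The median was 0.22 over all 44 and over the 37 tested, against 0.01 over all tested genes. All 3 IFN-γ libraries lay above all 3 IL-27 libraries for Ifit2, Parp10, Parp14, Pml and the untested Ifi44, 5 of the 44, against 5.5% of all tested genes. The intervals are wide enough that a missed threshold does not show equality. For Zbp1 the difference was 0.08 (95% interval -0.86 to 1.03), for Isg20 0.08 (-0.83 to 0.99), for Ddx58 -0.04 (-0.77 to 0.68) and for Parp14 0.22 (-0.32 to 0.76). The median difference was 0.42 for the classic targets and 0.18 for the Parp, sensor and Ifitm genes. The second median was -0.03 without IFN-γ library 3, 0.30 without IFN-γ library 1 and 0.02 without IL-27 library 1.

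**Figure D5:**
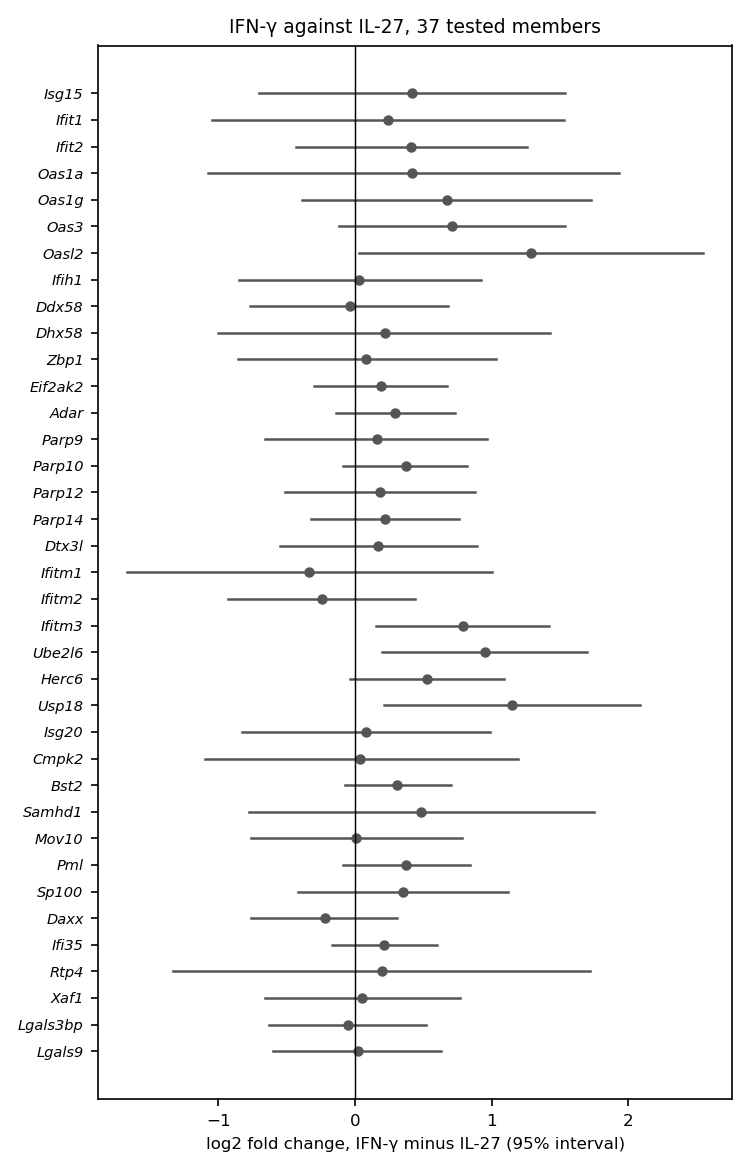
Difference between IFN-γ and IL-27 in log2(FPKM + 1) for the 37 tested antiviral genes, with 95% intervals that are not adjusted for the number of genes. Points right of 0 are higher with IFN-γ; the intervals of Oasl2, Ifitm3, Ube2l6 and Usp18 lie wholly above 0, and the others cross it.

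Some genes of the signalling pathway also rose. Of 19 listed genes of ISGF3, interferon and IL-27 signalling, 6 rose with IFN-γ (Stat2, Irf9, Irf1, Irf7, Irf8 and Socs1) and 13 did not pass, and 3 rose with IL-27 (Irf9, Irf1 and Irf8) and 16 did not pass, against 2.19% and 0.908% of all tested genes called higher. In the blocked fit 8 rose and 1 fell with IFN-γ (6.51% and 4.66% of all tested genes), and 7 rose with IL-27 (3.37%). The gene that fell in that fit, named after its values were seen, was Socs3, a feedback inhibitor gene (adjusted p = 0.249 without the block and 0.00136 with it). Irf1, a transcription factor gene, had 34.2, 27.4 and 92.8 FPKM with IL-33 alone, 438, 435 and 701 with IFN-γ, and 389.6, 306 and 468 with IL-27 (log2 difference 3.49, adjusted p = 0.00182, and 3.07, adjusted p = 0.00648).

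Stat2 and Irf9 encode subunits of ISGF3. Stat2 had 6.31, 3.33 and 6.9 FPKM with IL-33 alone, 21.9, 15.5 and 21.1 with IFN-γ, and 24.1, 9.78 and 17 with IL-27 (log2 difference 1.69, adjusted p = 0.0308, and 1.43, adjusted p = 0.118, 0.00619 in the blocked fit). Irf9 had 5.70, 7.40 and 8.9 FPKM with IL-33 alone, 22.7, 16.3 and 24.5 with IFN-γ, and 24.1, 23.1 and 20.3 with IL-27 (1.41, adjusted p = 0.00894, and 1.51, adjusted p = 0.0134). No treated library overlapped IL-33 alone for either gene. The Stat2 call ended on leaving out IL-33 library 1 (0.0699) or 2 (0.105) or IFN-γ library 1 (0.109), 2 (0.0703) or 3 (0.115), and the Irf9 call with IL-27 on leaving out IL-33 library 1 (0.0501) or 2 (0.061) or IL-27 library 1 (0.0672) or 2 (0.0645). Irf7, which encodes the factor that amplifies type I interferon, had 0, 0.597 and 9.6 FPKM with IL-33 alone, 20.7, 27.3 and 51.0 with IFN-γ, and 19.8, 9.54 and 34.7 with IL-27. It rose with IFN-γ (adjusted p = 0.0423) and did not pass with IL-27 (0.176, 0.0136 in the blocked fit). The Irf7 call held only without IL-33 library 3 or IL-27 library 3; otherwise the adjusted p ran from 0.0571, without IL-27 library 2, to 0.155, without IFN-γ library 3.

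Irf8, a transcription factor gene of the same family, had log2 fold changes of 3.14 (adjusted p = 0.00032) and 2.45 (0.00275), and Socs1, a feedback inhibitor gene, 2.71 (0.000707) and 1.35 (0.052, 0.0278 in the blocked fit). Of 17 interferon ligand genes, 15 were listed. Ifnb1 was at 0 in all 9 libraries, Ifnz reached at most 0.175 FPKM, and the other type I genes listed were at 0. Ifng had 0, 0 and 1.0 FPKM with IL-33 alone, 10.1, 12.2 and 10.6 with IFN-γ, and 27.8, 12.1 and 8.6 with IL-27. Ifng passed the filter only through the treated groups. Every treated library was above those with IL-33 alone, and it rose in both comparisons (adjusted p = 0.0032 and 0.0033).

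Related families did not follow as a whole. Of all tested genes, 2.19% were called higher with IFN-γ and 0.908% with IL-27, and 0.717% lower with IFN-γ. Of 11 other Parp family genes, Parp11 alone rose, from 1.73, 2.91 and 4.6 FPKM to 23.0, 16.3 and 22.6 with IFN-γ (log2 difference 2.45, adjusted p = 0.00248) and to 14.7, 8.73 and 10.4 with IL-27 (1.62, adjusted p = 0.0428). The IL-27 call held only without IL-33 library 3; in the other 8 omissions the adjusted p ran from 0.0659, without IFN-γ library 1, to 0.159, without IL-33 library 2 or IL-27 library 1. Of 12 listed genes among 13 other sensing genes, 9 were tested and none was called in either comparison. In the blocked fit 2 of the 9 were higher with IFN-γ, against 6.51% of all tested genes. A limma unadjusted p under 0.05 was reached by 2 with IFN-γ and 1 with IL-27, against 15.4% and 9.51% of all tested genes. Of 10 listed close copies of the antiviral genes 3 were tested. Oas1b had 1.87, 0.571 and 3.2 FPKM with IL-33 alone, 8.36, 5.20 and 5.7 with IFN-γ, and 3.79, 1.14 and 2.1 with IL-27. Its IFN-γ libraries lay above the others, but it did not pass (log2 difference 1.45, adjusted p = 0.134, 0.0285 in the blocked fit), and with IL-27 the adjusted p was 0.919. Adarb1, an RNA-editing relative of Adar, had 11.98, 9.12 and 10.1 FPKM with IL-33 alone, 5.24, 1.79 and 2.3 with IFN-γ, and 9.32, 4.57 and 6.3 with IL-27. It fell with IFN-γ (log2 difference -1.56, adjusted p = 0.047), opposite to Adar, and did not pass with IL-27 (-0.60, adjusted p = 0.672). The Adarb1 call held only without IFN-γ library 1 or IL-27 library 1; otherwise the adjusted p ran from 0.0596, without IL-27 library 2, to 0.158, without IFN-γ library 3.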

How the data were processed

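RNA sequencing libraries of 9 ILC2 cultures were analysed, 3 in each of 3 groups, as labelled. The tools named in the submitters' processing notes are Cufflinks 2.1.1, TopHat2 2.0.8 and Bowtie2 2.1.0, with mouse build mm9; parameters and annotation are not given in the sources used here. The deposited tables hold 1 value per gene, taken as the authors' FPKM. The unit is not written in them and was inferred from the Cufflinks column header and the decimal values. The tables numbered 3 give 1 decimal, and digit-grouping commas were removed. The fragment totals were estimated from the steps between low values with GENCODE vM1 lengths, so they are approximate.

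All tests used log2(FPKM + 1). The 11014 genes that averaged 1 FPKM or more across the 9 libraries were fitted over all 3 groups with limma 3.58.1 (lmFit, contrasts.fit, eBayes with trend, two-sided) in R 4.3.3, and p-values were adjusted by Benjamini-Hochberg within each of 3 comparisons. The script was checked on simulated data. Folds are 2 to the power of the log2 fold change. Tables and figures were made with matplotlib 3.10.9, pandas 2.3.3 and numpy 2.4.6 in Python 3.11.15. Positions come from GENCODE vM1 (mm9), which matched all 44 genes, and promoters from RefSeq (GRCm38.p6).

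Deviations from group means correlated at 0.1277 to 0.3672 for the 9 pairs of libraries with the same number and at -0.2981 to -0.02506 for the 18 other pairs, so equal numbers are treated as pairs; the labels do not say what a number shares. A second fit used the number as a block.

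The 44 genes, the pathway and marker lists and the tests were chosen with earlier results of these data known. Each library's value is given for classic, sensor, Parp and Ifitm genes that averaged 1 FPKM or more and for other members called in a comparison. Other pathway genes are named where called, with Stat2, Irf9, Irf7, Irf1, Ifnb1 and Ifng in any case. A gene of the signalling list is not reported here. Alternatives covered the pseudocount, the filter, upper-quartile scaling, the block, fits of 2 groups, single omissions, libraries 1 and 2 only and no trend.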

Additional observations from a re-analysis of the deposited data

How the results depend on the processing

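The number of antiviral genes higher with IFN-γ was 20 in the reported fit and 32 with the replicate block; with each library left out in turn it was 12 to 24, and under the other settings 14 to 24. The number higher with IL-27 was 11, and 28 with the replicate block, 6 without the expression filter, 4 when only the 2 groups compared were fitted, 6 with libraries 1 and 2 unblocked, and 3 to 13 with each library left out in turn. Under the remaining settings it was 8 to 16. None was lower in any setting, and the direct comparison called none in any setting. The 20 and 11 calls were all kept in the blocked fit, and beside the genes given above the block changed no other call of an antiviral gene. With a pseudocount of 0.1 the median log2 difference of the classic targets was 2.32 with IFN-γ and 2.24 with IL-27. The direct median of the Parp, sensor and Ifitm genes was 0.18, and ran from -0.03 to 0.30 with each library left out in turn, changing sign without IFN-γ replicate 3. The cause of these shifts was not tested, and an omission also leaves fewer libraries. With 1 group at 2 libraries, its spread is assumed to be like that of the others. Genes near 3 fragments, among them Ifit3, Mx1, Mx2 and Ifitm1, are limited by depth.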
